A study of Mus musculus with 12 samples.

Results

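Wfdc17 and its relatives Slpi and Wfdc2 were followed in blood-forming stem cells of mice treated with agents that move stem cells out of the marrow. These 3 genes were found on the array by symbol, synonym or RefSeq accession, out of 33191 genes tested. Wfdc17 was picked because its level was raised after both courses of granulocyte colony-stimulating factor (G-CSF), so its differences between G-CSF and sham are a description here and carry no test. Slpi and Wfdc2 were taken because, like Wfdc17, they encode small secreted proteins with the WAP fold.

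The RNA came from haematopoietic stem cells that had been taken from male mice and sorted by flow cytometry as lineage-negative, Sca-1 and Kit positive cells with SLAM family markers after enrichment of bone marrow for Kit. POL5551, which blocks CXCR4, the receptor for the marrow chemokine Cxcl12, was given by continuous infusion at 100 mg/kg per day for 14 days. G-CSF was injected at 100 ug/kg every 12 h, over 5 days with 9 injections or over 2 days with 4 injections. Control mice had a sham operation, and nothing in the labels says that the G-CSF mice were operated on. Each of the 4 groups held 3 mice with 1 single-colour Agilent array each, 12 arrays in all. The labels give neither the strain nor the age of the mice.

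The WAP domain, named after whey acidic protein of milk, is a compact fold held together by disulphide bonds between cysteines, and several proteins that carry it block serine proteases. Slpi inhibits neutrophil elastase and cathepsin G and dampens inflammatory signalling in macrophages. Wfdc17, also called Amwap, is known as a secreted protein of activated macrophages and microglia, and Wfdc2 (HE4) is a secreted protein of epithelia, used in humans as a serum marker of ovarian cancer. Most mouse genes of the family lie together on chromosome 2, near the seminal vesicle secretory proteins, and a smaller group with Wfdc17 lies on chromosome 11 beside chemokine genes.

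Levels are given as the log2 of a probe's processed signal minus the 75th percentile of its array, so a level of 0 is the 75th percentile and 1 unit is a doubling. They compare arrays for 1 probe and do not rank different genes. Wfdc17 and Wfdc2 had 1 probe each and Slpi had 3. The probes that decide the results are shown so that a reader can see what each level measures, 5′ to 3′ as designed.
Wfdc17 probe: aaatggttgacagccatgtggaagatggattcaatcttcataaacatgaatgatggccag
Slpi upstream probe: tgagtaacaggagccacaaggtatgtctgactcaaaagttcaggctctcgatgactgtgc
Slpi middle probe: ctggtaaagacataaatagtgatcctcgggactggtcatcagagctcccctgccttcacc
On mouse build mm9 the Wfdc17 probe lies at chr11:83518443-83519627 on the plus strand. Its 60 bases are spread over 1185 bp, so it joins separate blocks of the genome. The Wfdc2 probe lies at chr2:164393935-164393994, plus strand. Slpi is on the minus strand of chromosome 2, with its upstream probe at chr2:164185063-164185122, its middle probe at chr2:164182009-164182068 and its downstream probe at chr2:164179849-164179908. The array design ties the middle and downstream probes to the RefSeq transcript NM_011414 and the upstream probe to the mRNA record U73004 only. All 3 Slpi probes together span 5274 bp on mm9, whereas the RefSeq gene is 2438 bp long and the middle and downstream probes span 2220 bp. From the upstream to the middle probe it is 3114 bp, so both cannot lie within a gene of that length. The upstream probe nevertheless stood for Slpi in the tests over all genes, since the rule took the probe with the highest mean.

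The promoter of Wfdc17 is shown because its level set the G-CSF groups apart. The window runs from 250 bases before to 50 bases after the RefSeq start (GRCm38.p6, chr11:83703806-83704105, plus strand).
Wfdc17 promoter: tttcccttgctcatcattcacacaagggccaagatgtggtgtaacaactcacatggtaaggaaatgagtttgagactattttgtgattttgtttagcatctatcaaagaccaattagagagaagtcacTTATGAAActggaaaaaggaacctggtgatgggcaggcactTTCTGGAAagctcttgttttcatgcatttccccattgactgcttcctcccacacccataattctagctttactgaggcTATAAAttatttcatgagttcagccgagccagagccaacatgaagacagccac
Capitals mark letters that match searched motifs on either strand. They are 2 matches to TTNNGNAA, a loose form of the C/EBP motif, at 122 and 81 bases before the start, and 1 TATAAA that begins 3 bases before it. TTNNGNAA occurred in 40.7% of 27025 mouse promoters of this length and TATAAA in 14.2%. The matches do not overlap each other. TTNNGNAA also occurred 3 times in the Slpi window and 1 time in the Wfdc2 window, neither of which held TATAAA. None of the 3 windows held TTCNNNGAA, the STAT motif, found in 8.47% of promoters, or GAGGAAGT, the PU.1 motif, found in 3.28%. The matches describe these letters and do not show that a factor binds there.

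Facts of the arrays that touch these genes come before the values. The 75th percentile of the processed signal ranged from 1638 to 5579, and 75.3% to 85.6% of probes were well above background. Beside the stem cell sort, 8 genes were read (Kit, Ly6a, Slamf1, Cd48, Procr, Cd34, Mecom and Hlf). All 8 were tested, and 7 or 8 were well above background on every array. Since most probes of the array were above background too, this does not check the purity of the sort. The median level of 1542 probes for olfactory, vomeronasal, taste and keratin-associated genes, called off-tissue here, was -4.59 ± 0.54 after POL5551, -3.69 ± 0.39 after 5 days of G-CSF, -2.58 ± 0.16 after 2 days and -2.78 ± 1.02 in sham (SD, n = 3 each). Sham mouse 1 stood apart at -1.60, against -3.30 and -3.45 in the other sham mice. POL5551 arrays, at -5.17 to -4.10, did not overlap any other group, the lowest of which was -3.97. Fits below with this median as a covariate therefore cannot tell the POL5551 group from off-tissue signal. The 12 arrays lay on 6 slides. The 2-day G-CSF arrays shared a slide with no other group, so slide and group cannot be told apart for that group. No 5-day array shared a slide with a sham array either, and 1 slide held a 5-day and a POL5551 array. In sorted cells pooled for RNA, more cells that express a gene and more RNA per cell cannot be told apart.

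Wfdc17 was the member whose level differed most between groups. After POL5551 its levels were -1.43, -0.68 and -1.37 in mice 1, 2 and 3. After 5 days of G-CSF they were 1.87, 2.51 and 2.09, and after 2 days 1.37, 1.57 and 1.56. In sham mice they were -1.83, -1.73 and -3.28.
Every 5-day mouse lay above every 2-day mouse, every 2-day mouse above every POL5551 mouse, and every POL5551 mouse above every sham mouse. In that order, the neighbours 5 and 2 days of G-CSF, and the neighbours POL5551 and sham, did not differ past the threshold of 0.05 after adjustment in the tests that follow. The probe was well above background on all 12 arrays. The authors' deposited table gave Wfdc17 intensities of 1991, 1191 and 1285 after POL5551, 11153, 13876 and 18623 after 5 days of G-CSF, 8226, 9834 and 9459 after the 2-day course, and 597, 822 and 269 in sham. These values are on a linear scale and show the same separation of the groups.

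**Figure D1:**
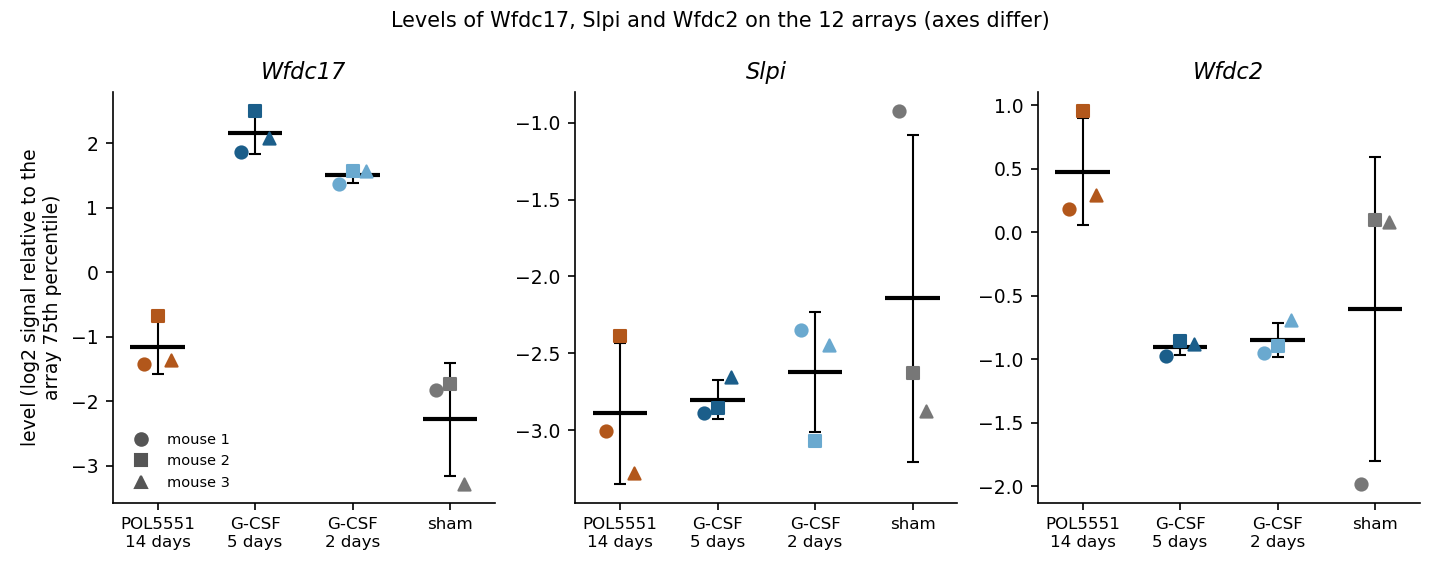
Levels of Wfdc17, Slpi (upstream probe) and Wfdc2 on each of the 12 arrays, as log2 signal relative to the array's 75th percentile, with the group mean (horizontal line) and SD (bars, n = 3 mice). Wfdc17 separates the groups without overlap, with 5-day G-CSF mice at 1.87 to 2.51 and sham mice at -3.28 to -1.73, whereas sham mouse 1 lies far from the other sham mice for Slpi (-0.92) and Wfdc2 (-1.98).

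The group means of Wfdc17 were -1.16 ± 0.42 after POL5551, 2.15 ± 0.32 after 5 days of G-CSF, 1.50 ± 0.12 after 2 days and -2.28 ± 0.87 in sham (SD, n = 3 each). The log2 difference from sham was 4.43 after 5 days, 21.6-fold, and 3.78 after 2 days, 13.8-fold. Among all genes tested, 6 had a larger positive difference from sham after 5 days and 7 after 2 days. Groups did not overlap upwards for 4.4% of genes after 5 days and 6.59% after 2 days. These are the comparisons that Wfdc17 was picked on. The spread was widest in sham, where mouse 3 was lowest, and narrowest after 2 days of G-CSF.

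The other comparisons of Wfdc17 were fitted with limma over all genes on all 12 arrays, with p adjusted by Benjamini and Hochberg's method. Wfdc17 was picked on the G-CSF and sham arrays, which form 1 arm or both arms of each of these comparisons. The calls and p-values below are therefore partly fixed by that choice and are not independent evidence. POL5551 against 5 days of G-CSF gave a Wfdc17 difference of -3.31 (SE 0.43, adjusted p = 0.0274), 9.93-fold lower after POL5551. POL5551 against 2 days of G-CSF gave -2.66 (SE 0.43, adjusted p = 0.0116), 6.32-fold lower after POL5551. Wfdc17 was the 1 member of 3 that passed in each of these comparisons, where 0.0603% of all genes passed against 5 days and 30.6% against 2 days. Its POL5551 levels lay below those of the G-CSF groups without overlap, as did 15.2% of genes against 5 days and 43.4% against 2 days. These pairs differ in agent and in length of treatment at once. The call against 5 days was lost in 8 of the 12 fits that left out 1 array, among them the fits without any 1 of the POL5551 or 5-day mice, with adjusted p of 0.0505 to 0.138, and with an adjusted p of 0.0547 when mouse number was a block. The call against 2 days was lost without POL5551 mouse 1 (adjusted p = 0.0535) or 2-day mouse 1 (adjusted p = 0.0537). When the off-tissue median entered as a covariate, the differences were -3.03 (adjusted p = 0.111) against 5 days and -2.02 (adjusted p = 0.508) against 2 days, in a fit that called 0 of all genes in either comparison, with 2314 and 2941 at an unadjusted p under 0.05. On the slide that held 1 POL5551 mouse and 1 mouse of the 5-day group, the difference was -3.87.

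POL5551 against sham gave a Wfdc17 difference of 1.12 (SE 0.43, 95% interval 0.19 to 2.06), which did not pass the limma test (adjusted p = 0.108). With 1 array left out it ranged from 0.62, without sham mouse 3, to 1.40, without sham mouse 2. None of the 3 members passed in this comparison, where 2.28% of all genes did. All 3 POL5551 mice lay above all 3 sham mice, which was true of 10.6% of genes. The median difference of all genes in this comparison was -0.52, so Wfdc17 and the bulk of genes lay on opposite sides of 0. Within slides the difference was 0.40 on the slide with sham mouse 1 and 1.83 on the slide with sham mice 2 and 3.

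G-CSF for 5 days against 2 days gave a Wfdc17 difference of 0.65 (SE 0.43, 95% interval -0.28 to 1.59, adjusted p = 0.423). The limma test called none of the 3 members here and 0% of all genes, with 5370 genes at an unadjusted p under 0.05. The 5-day mice lay above the 2-day mice without overlap, as for 11.7% of genes. The mean was higher after the longer course by an amount the test did not separate from 0.

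**Figure D2:**
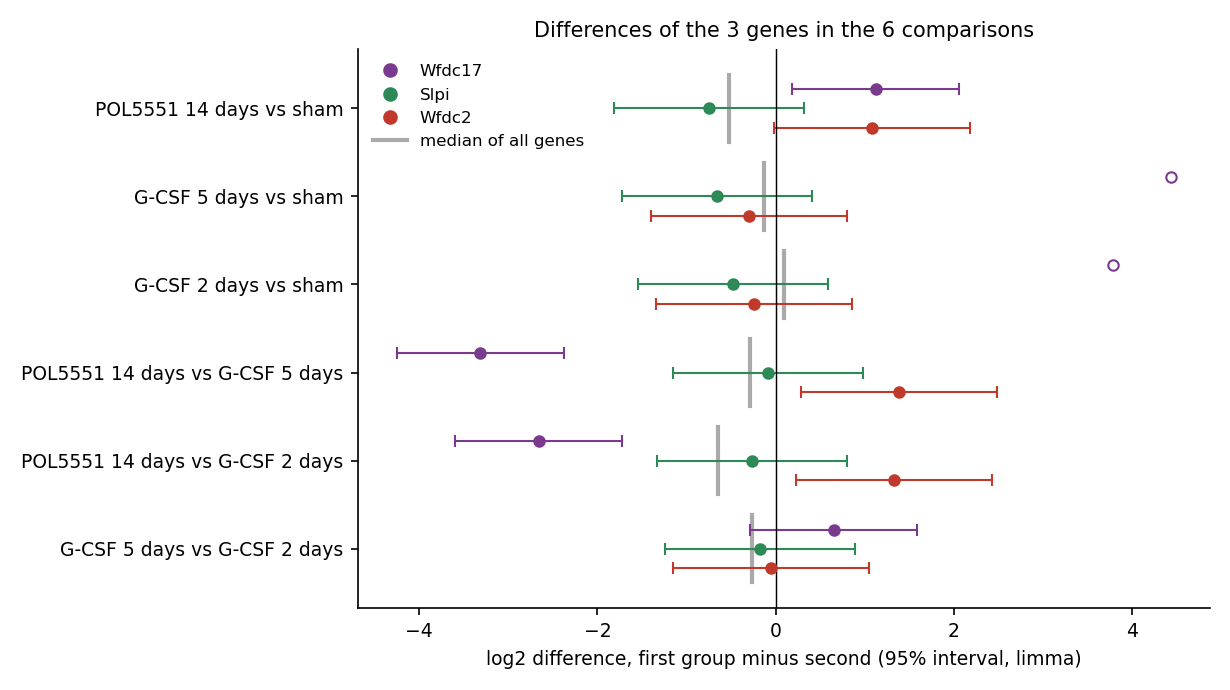
Log2 differences of Wfdc17, Slpi (upstream probe) and Wfdc2 in the 6 comparisons, first group minus second, with 95% limma intervals and the median difference of all genes as a grey bar. Wfdc17 is drawn as an open point with no interval at 4.43 and 3.78 in the G-CSF comparisons it was picked on, and the Slpi intervals include 0 in all 6.

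Wfdc2 was highest after POL5551. Its levels were 0.18, 0.96 and 0.29 after POL5551, -0.98, -0.86 and -0.88 after 5 days of G-CSF, and -0.95, -0.90 and -0.70 after 2 days. In sham mice they were -1.98, 0.10 and 0.08. The POL5551 mice lay above all other mice. Both G-CSF groups were tightly grouped, and they lay between sham mouse 1 and the other sham mice. The probe was well above background on all 12 arrays.

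The mean of Wfdc2 was 0.48 ± 0.42 after POL5551, -0.91 ± 0.06 after 5 days of G-CSF, -0.85 ± 0.13 after 2 days and -0.60 ± 1.20 in sham (SD, n = 3 each). Against sham, POL5551 gave a difference of 1.08 (SE 0.50, 95% interval -0.02 to 2.18, adjusted p = 0.147), and without sham mouse 1 it was 0.39 (adjusted p = 0.447). On the slide with sham mouse 1 it was 2.17, and on the slide with sham mice 2 and 3 it was 0.87. Against 5 days of G-CSF the difference was 1.38 (SE 0.50, 95% interval 0.28 to 2.48, adjusted p = 0.402), with groups that did not overlap, as for 10.3% of genes. Against 2 days it was 1.33 (SE 0.50, 95% interval 0.23 to 2.42, adjusted p = 0.0617), again without overlap, as for 21.8% of genes. That call depended on the setting, since it passed without sham mouse 1 (adjusted p = 0.00531), with median scaling (adjusted p = 0.0399) and with probes above background on all 12 arrays (adjusted p = 0.0392), whereas with the off-tissue median as covariate the sign turned, to -0.21 (adjusted p = 0.938). Against 5 days that covariate gave 0.70 (adjusted p = 0.756). The covariate did not overlap between POL5551 and G-CSF arrays, so these fits cannot tell group from off-tissue signal.
Wfdc2 did not pass against sham after G-CSF. The differences were -0.30 (95% interval -1.40 to 0.80, adjusted p = 0.819) after 5 days and -0.25 (95% interval -1.35 to 0.85, adjusted p = 0.935) after 2 days. Without sham mouse 1 they were -0.99 (adjusted p = 0.367) and -0.94 (adjusted p = 0.110). The 2 courses differed by -0.06 (95% interval -1.16 to 1.04, adjusted p = 0.952).

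Slpi did not pass in any of the 6 comparisons. On the upstream probe its levels were -3.01, -2.38 and -3.28 after POL5551, -2.89, -2.86 and -2.65 after 5 days of G-CSF, -2.35, -3.07 and -2.44 after the 2-day course, and -0.92, -2.63 and -2.88 in sham. All groups overlapped apart from sham mouse 1, which was the highest of the 12. The differences from sham were -0.75 (95% interval -1.81 to 0.32, adjusted p = 0.253) after POL5551, -0.66 (95% interval -1.73 to 0.41, adjusted p = 0.602) after 5 days of G-CSF and -0.48 (95% interval -1.55 to 0.59, adjusted p = 0.843) after 2 days. Of the 3 members, Slpi and Wfdc2 were the ones open to a test against sham after G-CSF, and neither was called, against 0.0663% of genes after 5 days and 0.0331% after 2 days. Without sham mouse 1 the differences of Slpi from sham were -0.14 after POL5551, -0.05 after 5 days and 0.13 after 2 days. Between the treatments the upstream probe gave -0.09 (95% interval -1.16 to 0.98) for POL5551 against 5 days and -0.27 (95% interval -1.34 to 0.80) for POL5551 against 2 days. For 5 against 2 days it gave -0.18 (95% interval -1.25 to 0.89).

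The probes tied to the RefSeq transcript of Slpi gave other patterns. The middle probe had levels of -7.39, -3.71 and -7.07 after POL5551, -4.55, -4.67 and -4.10 after 5 days of G-CSF, -4.47, -3.22 and -3.78 after the 2-day course, and -1.98, -2.79 and -3.34 in sham. It was well above background on 1 of 3 arrays after POL5551, 1 of 3 after 5 days of G-CSF, 2 of 3 after 2 days and 3 of 3 in sham. All POL5551 mice lay below all sham mice, as for 25.8% of genes, and in a fit with each of 49499 tested probes as its own row the difference was -3.36 (SE 0.82, adjusted p = 0.0634). The downstream probe had levels of -4.93, -3.84 and -3.41 after POL5551, -4.05, -3.72 and -4.41 after 5 days of G-CSF, -3.00, -2.43 and -3.25 after the 2-day course, and -3.08, -2.97 and -4.08 in sham. Its POL5551 and sham groups overlapped, with a difference of -0.68 (adjusted p = 0.287). After 2 days of G-CSF the sign against sham differed between probes, 0.48 on the downstream probe against -1.12 on the middle and -0.48 on the upstream probe. After POL5551 and after 5 days of G-CSF the sign against sham was negative on all 3 probes in these fits.

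**Figure D3:**
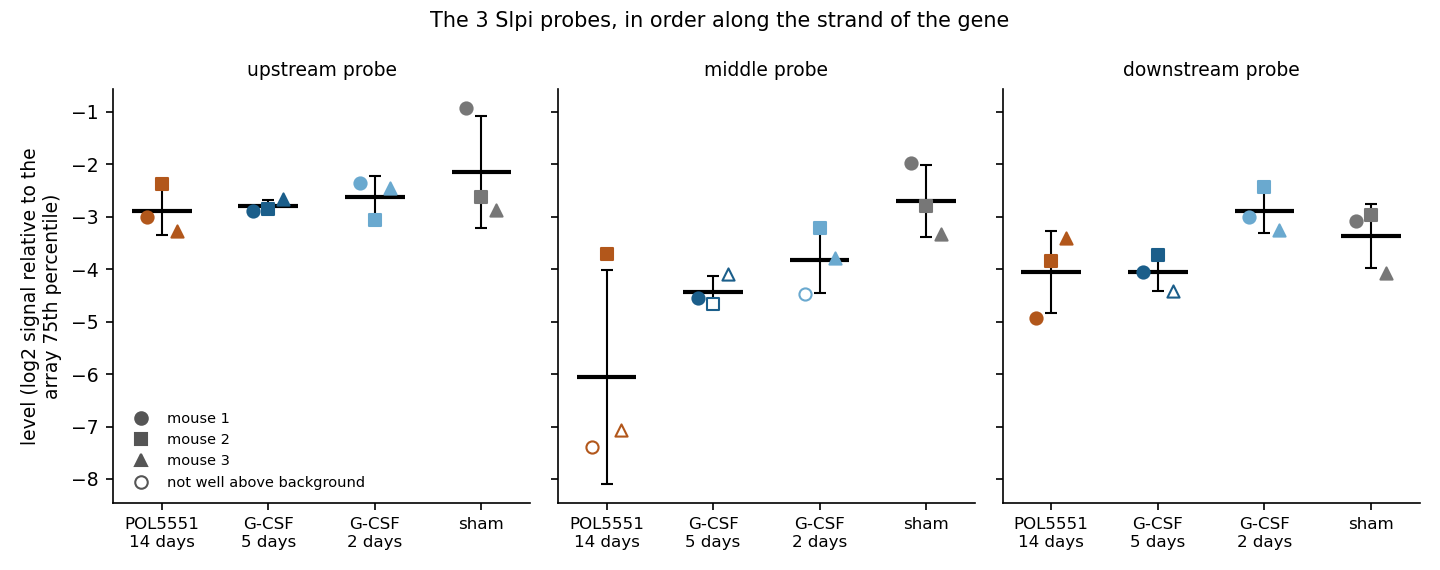
Levels of the upstream, middle and downstream Slpi probes on the 12 arrays, as log2 signal relative to the array's 75th percentile, with group mean and SD (n = 3 mice) and open symbols where a probe was not well above background. The middle probe reaches -7.39 and -7.07 on POL5551 arrays where it was not well above background, whereas the other probes stay at or above -4.93 on all arrays.

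The rest of the WAP family was read from a list of 20 genes, of which 19 were tested and Eppin was not. In POL5551 against sham, 0 rose and 1 fell, where 2.11% of all genes fell. The 1 was Wfdc9, whose levels were -2.68, -2.25 and -3.19 after POL5551 and -0.13, -0.97 and -0.44 in sham. Its probe lies at chr2:164477213-164477272 on mm9, in the chromosome 2 cluster. The difference was -2.19 (SE 0.44, adjusted p = 0.0380), with a list median of -0.69 against -0.52 for all genes. Groups did not overlap upwards for 1 gene of the list and downwards for 5, as for 10.6% and 25.8% of all genes. The 1 was Wfikkn2, not called, with the list's highest difference, 3.15. It averaged -2.42 ± 0.59 after POL5551 and -5.57 ± 1.61 in sham (SD, n = 3 each). It was well above background on 3 of 3 POL5551 arrays and 1 of 3 sham arrays. No gene of the list was called without sham mouse 1, any 1 of the POL5551 mice, 2-day mouse 1 or 2, or 5-day mouse 2, and none with quantile normalization or median scaling. Without sham mouse 2 or sham mouse 3 the count was 3, and without 5-day mouse 3 it was 2. After 5 days and 2 days of G-CSF against sham none of the 19 passed, with list medians of 0.05 and 0.31 against -0.13 and 0.10 for all genes. Their highest differences from sham were 0.75 after 5 days and 2.03 after 2 days.

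POL5551 against 2 days of G-CSF gave 8 WAP genes that were called lower and none called higher, with a list median of -1.37 against -0.65 for all genes, 24.7% of which were called lower. The highest difference of the list was 2.65, for Wfikkn2. Wfdc15a (chr2:164025407-164025466) was at -1.32, -0.22 and -0.09 after POL5551 and at 2.17, 1.49 and 1.49 after 2 days of G-CSF, a difference of -2.26 (SE 0.47, adjusted p = 0.0143). Wfdc18, the next gene to Wfdc17 (chr11:83524731-83524790), was at -1.63, -0.68 and -2.36 after POL5551 and at -0.05, 0.37 and 0.01 after 2 days, a difference of -1.66 (SE 0.46, adjusted p = 0.0263). Neither gene's groups overlapped, as for 43.4% of genes in that direction. The others were Wfdc13 (-3.20), Wfdc10 (-1.67), Wfdc3 (-1.57), Wfdc9 (-1.53) and Wfdc15b (-1.46), and Wfdc6a, which was at least 3.26-fold lower since it was well above background on no POL5551 array and on 2 of 3 arrays after 2 days of G-CSF. Among the brightest of the list, Wap itself (whey acidic protein) had -0.77 (adjusted p = 0.0821) and Wfikkn1, a secreted protein that binds myostatin, -0.09 (adjusted p = 0.898). The count was 12 without sham mouse 1, 0 without POL5551 mouse 1 or 2-day mouse 1, 3 without POL5551 mouse 3 or 2-day mouse 2, 1 without 2-day mouse 3, and 2 with quantile normalization or median scaling. No WAP gene of the list passed in POL5551 against 5 days (median -0.54, all genes -0.28) or in 5 against 2 days (median -0.51, all genes -0.27).

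The median of the WAP list moved with the off-tissue probes, though not every gene of the list did. The median level of the 19 genes ran from -2.55 to -2.21 on POL5551 arrays, -2.60 to -1.63 on 5-day arrays, -1.70 to -1.43 on 2-day arrays and -2.03 to -1.02 on sham arrays, where sham mouse 1, highest in off-tissue signal, was also highest here. In the fit with that median as a covariate, limma called 0 of the 19 both in POL5551 against sham and in POL5551 against 2 days, and also 0 of all genes in both. At an unadjusted p under 0.05 it had 3 of the 19 and 1813 of all genes against sham, and 1 of the 19 and 2941 of all genes against 2 days. The list median in that fit was 0.06 against sham (all genes -0.06) and -0.36 against 2 days (all genes -0.10). Over the 12 arrays, as a description of points that share groups and slides, the correlation with the off-tissue median was 0.13 for Wfdc17, 0.66 for Slpi's upstream probe and -0.75 for Wfdc2. Without sham mouse 1 (n = 11) it was 0.39, 0.38 and -0.62. With the covariate the POL5551 minus sham difference was -0.30 for Wfdc2 and 0.62 for Slpi, both opposite in sign to the values without it. For Wfdc17 it was 1.69. Off-tissue medians of POL5551 arrays did not overlap those of other groups, so the covariate fits cannot tell group from off-tissue signal.

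**Figure D4:**
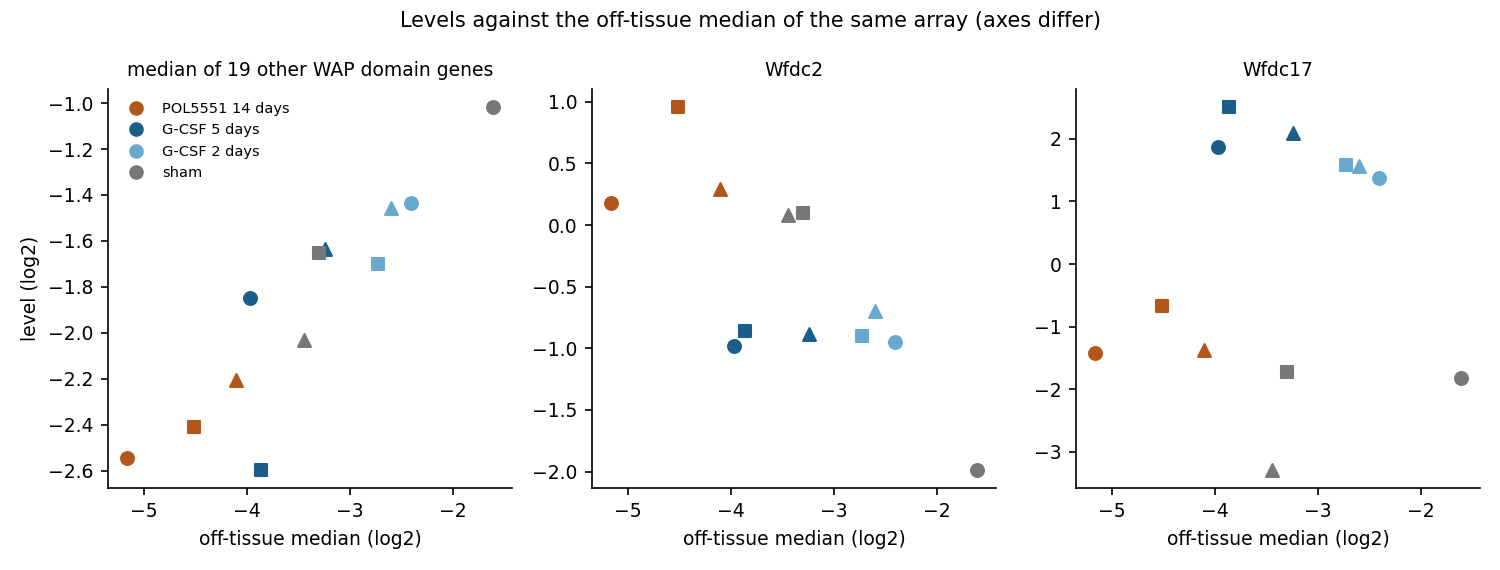
Median level of the 19 other WAP domain genes, level of Wfdc2 and level of Wfdc17 (log2, vertical axes) against the off-tissue median of the same array (log2, horizontal axes), with 1 point per array, colour for the group and shape for the mouse number (circle 1, square 2, triangle 3). The WAP list is lowest on arrays with low off-tissue medians and highest on sham mouse 1 (-1.02 at -1.60), Wfdc2 runs the other way, and for Wfdc17 the G-CSF arrays stand above the others, although all POL5551 arrays have lower off-tissue medians than any G-CSF array.

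The neighbourhood of Wfdc17 was read from 8 genes of chromosome 11, of which 6 are within 4 genes of it in RefSeq order. Ccl9, Ccl6, Ccl3 and Ccl4, chemokine genes, lie on one side, and Wfdc18 and Wfdc21 on the other, while Ccl5 and Heatr9 are farther off. After G-CSF against sham none of the 8 passed, with medians of 0.32 after 5 days and 0.27 after 2 days. Ccl9, a chemokine of myeloid cells (chr11:83388223-83388282), was at 0.04, 0.02 and -0.32 after 5 days against -1.22, -1.92 and -1.70 in sham, a difference of 1.53 (SE 0.33, adjusted p = 0.175). Those groups did not overlap, as for 4.4% of genes in that direction, and Ccl9 was singled out after its values were seen. Its pattern was not that of Wfdc17, with means of -1.58 ± 0.43 after 2 days, -0.63 ± 0.31 after POL5551 and -1.61 ± 0.36 in sham (SD, n = 3 each). After 2 days the highest difference of the 8 from sham was 1.03, for Wfdc18. Its groups did not overlap, as for 6.59% of genes in that direction. Among the brightest of the 8, the differences from sham after 5 days were 0.26 for Ccl5 (adjusted p = 0.785), -0.60 for Ccl6 (adjusted p = 0.669), 0.65 for Wfdc18 (adjusted p = 0.593) and 0.03 for Ccl4 (adjusted p = 0.986). Wfdc18 in POL5551 against 2 days of G-CSF, given above, was the one call among the 8 in all 6 comparisons.

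Proteases that WAP proteins inhibit, and other inhibitors, formed a list of 24 genes, with 22 tested. None passed against sham after any treatment, and the calls were in POL5551 against 2 days of G-CSF, where 1 rose and 7 fell, against 5.87% and 24.7% of all genes. Timp2, an inhibitor of matrix metalloproteinases (chr11:118163146-118163205), was at 3.58, 3.41 and 3.29 after POL5551 and at 2.40, 2.10 and 2.28 after 2 days, a difference of 1.17 (SE 0.30, adjusted p = 0.0217). The rise of Timp2 rests on that probe. Its other tested probe averaged 0.76 ± 0.31 after POL5551 and 0.64 ± 0.10 after 2 days (SD, n = 3 each), with groups that overlapped. Elane, the neutrophil elastase that Slpi blocks, fell by 1.21 (adjusted p = 0.0443). Spint1, an inhibitor of serine proteases at cell surfaces, fell by 1.80 (adjusted p = 0.0151), Timp1 by 1.11 (adjusted p = 0.0391) and Serpina1a, an antitrypsin, by 1.08 (adjusted p = 0.0372). The other tested probe of Spint1 averaged -2.05 ± 0.34 after POL5551 and -1.89 ± 1.42 after 2 days, with overlap. That of Serpina1a was lower after POL5551 too, at -4.94 ± 0.95 against -1.37 ± 1.00 (SD, n = 3 each). Stfa2, a cysteine protease inhibitor, fell by 2.82 (adjusted p = 0.0280), with 1 of 3 POL5551 arrays above background. A2m, a broad protease inhibitor of plasma, was at least 1.65-fold lower (adjusted p = 0.0265). The bright members Grn, the granulin precursor that Slpi shields from cleavage, Serpina3g and Cst3 had -0.35, 0.43 and -0.02 and did not pass. For Grn and Cst3 this depended on the probe, since their other probes had higher means after POL5551 than after 2 days. These means were 0.69 against -0.49 and 2.39 against 2.04 for Grn, and 4.32 against 3.28 for Cst3, given as a description. The median of the list was -0.07, against -0.65 for all genes. The count of 8 calls became 0 without POL5551 mouse 1, without 2-day mouse 1 or with the off-tissue covariate, 5 without POL5551 mouse 2, 4 without POL5551 mouse 3, 1 without 2-day mouse 2 and 2 without 2-day mouse 3.

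Markers of cells that make these proteins were read beside the members. Of 14 monocyte and macrophage markers 12 were tested (not Mrc1 and Fcgr1), and none passed in any of the 6 comparisons. Their summed level (log2 of the sum of the signals relative to the array's 75th percentile) ranged from 4.89 to 5.15 on POL5551 arrays, 4.69 to 5.04 on 5-day arrays, 5.01 to 5.22 on 2-day arrays and 4.89 to 5.32 on sham arrays, so those ranges overlapped where the Wfdc17 levels did not. The macrophage gene Adgre1 had differences from sham of -0.73 in the 5-day G-CSF group and 0.09 in the 2-day group, and the monocyte receptor Csf1r -0.15 and 0.07. All 14 neutrophil markers were tested and none passed, with summed levels of 2.13 to 3.75 on POL5551 arrays, 2.42 to 3.29 on 5-day arrays, 2.26 to 3.28 on 2-day arrays and 1.69 to 3.30 on sham arrays. Of 10 epithelial markers 8 were tested (not Cldn3 and Elf3), with summed levels of 3.32 to 4.02 on POL5551 arrays, 3.06 to 3.23 on 5-day arrays, 3.37 to 3.65 on 2-day arrays and 3.20 to 3.40 on sham arrays. In POL5551 against 2 days of G-CSF, the comparison in which Wfdc2 was higher without passing, 3 of the 8 were called lower, where 24.7% of all genes were, and 0 higher. They were Krt19, Cldn7 and Esrp1 (-2.10, -1.25 and -2.18, adjusted p of 0.0304, 0.0266 and 0.0186). Krt18, a keratin of simple epithelia, averaged 3.22 ± 0.43 after POL5551 and 2.29 ± 0.18 after 2 days (SD, n = 3 each). Its groups did not overlap, as for 21.8% of genes in that direction, and its adjusted p in limma was 0.114. Its partner Krt8 had a difference of 0.14 (adjusted p = 0.835). The part of these cell types in the members' levels was not tested.

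The 5 genes whose levels over the 12 arrays correlated best with Wfdc17, out of 21454 named genes that were well above background on all arrays of a group, were Ffar2 (r = 0.95), Selp (0.94), Meg3 (0.93), Muc1 (0.93) and Cltrn (0.91). The points share groups and slides and include the arrays on which Wfdc17 was picked, so the correlations are a description. Ffar2, a receptor for short-chain fatty acids, had a mean level of 1.60 ± 0.47 after POL5551, 2.92 ± 0.14 after 5 days of G-CSF, 2.60 ± 0.30 after 2 days and 1.08 ± 0.19 in sham (SD, n = 3 each). Selp, the adhesion molecule P-selectin, averaged 0.74 ± 0.38 after POL5551, 2.57 ± 0.18 after 5 days, 1.74 ± 0.28 after 2 days and 0.30 ± 0.36 in sham. Like Wfdc17, both were higher on every G-CSF array than on any POL5551 or sham array.
Meg3, an imprinted long non-coding RNA, averaged 1.03 ± 0.75 after POL5551, 2.35 ± 0.31 after 5 days, 2.45 ± 0.14 after 2 days and 0.44 ± 0.30 in sham. Muc1, a membrane mucin, averaged -2.19 ± 0.30 after POL5551, 0.54 ± 0.45 after 5 days, 0.05 ± 0.57 after 2 days and -2.67 ± 0.42 in sham. Cltrn, collectrin, was well above background on all 6 G-CSF arrays (-1.89 ± 0.41 after 5 days and -2.96 ± 0.55 after 2 days) and on no POL5551 or sham array. All 5 were thus highest in the G-CSF groups, and Meg3 was the one whose mean was not higher after 5 than after 2 days.

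**Figure D5:**
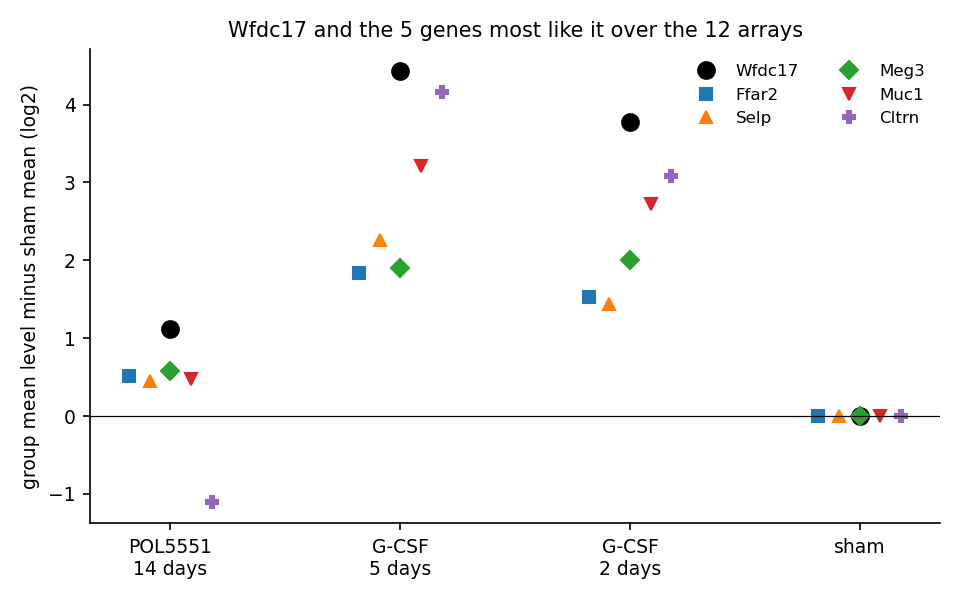
Group means of Wfdc17 and the 5 genes most correlated with it over the 12 arrays, each as the log2 difference from its own sham mean, for POL5551, 5 and 2 days of G-CSF, and sham (0 by construction). All 6 genes lie above 0 in both G-CSF groups, Wfdc17 at 4.43 and 3.78. On POL5551 and sham arrays Cltrn was never well above background, so its points are limited by background and are not ranked.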

How the data were processed

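Each of 12 arrays carried the RNA of 1 mouse labelled with Cy5, per the labels. Per the file headers, Agilent Feature Extraction 11.5.1.1 made the processed signal of each spot, an intensity on a linear scale with background subtracted, and no normalization between arrays was found in the scanner files. The authors' deposited table holds intensity values whose normalization method is not given in the sources used here. Its columns match scanner files of the same group but with other mouse numbers within the POL5551 and 5-day groups. The mouse numbers given follow the scanner files.

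Levels were log2(processed signal) minus the array's 75th percentile over probes other than controls. Outlier spots were dropped and replicate spots averaged. Tested probes were well above background on at least 3 of 12 arrays, and the probe with the highest mean stood for its gene. The tests used limma 3.58.1 (R 4.3.3) fitted over all 12 arrays (8 residual degrees of freedom), two-sided, adjusted over all genes by Benjamini and Hochberg's method, threshold 0.05. With 3 mice a group, the smallest p an exact permutation test allows is 0.1. The procedure was tested on simulated data. The fold of a gene not above background on any array of a group is a bound against the lowest signal well above background. Names came from RefSeq (GRCm38.p6), probe coordinates from the array design (mm9). Named were the members, list genes called in any comparison, up to 4 bright genes per list, and the 5 genes most like Wfdc17. Values of some genes of the lists are not reported here. Other genes named were chosen after their values were seen. The members, lists and tests were chosen with earlier results of these data known. Nothing says that mice of a group were housed or handled apart, so p-values measure the spread between these mice. The number of arrays limits the precision. Alternatives covered scaling, background correction, the filter, the authors' values, slide, mouse number, an off-tissue covariate and each array left out. The probe-level fit for Slpi and the alternatives for the protease list were added after seeing the data.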

Additional observations from a re-analysis of the deposited data

How the results depend on the processing

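Wfdc17 kept its direction under the 22 to 25 alternatives run for each comparison. For G-CSF against sham that direction was set by how Wfdc17 was picked. Settings that changed only the filter or averaged the probes, and the block of mouse number, could not move its difference, since it had 1 probe and balanced groups. Its call was kept in 12 of 23 tested alternatives for POL5551 against 5 days of G-CSF and in 19 of 22 for POL5551 against 2 days. With 1 array left out, its difference ranged from -3.55 to -3.14 against 5 days and from -2.90 to -2.52 against 2 days. With the off-tissue covariate it was -3.03 and -2.02. With slide as a fixed block it was -3.87 against 5 days (adjusted p = 0.99998), where 1 slide holds both groups and 0 genes were called, and this block could not be fitted for the 2-day group. Within slides the POL5551 minus sham differences were 0.40 for Wfdc17, -2.08 for Slpi and 2.17 for Wfdc2 on slide 1, and 1.83 for Wfdc17 and 0.37 for Slpi on slide 2, while slide 5 gave -3.87 for Wfdc17 against 5 days. Mouse numbers did not pair the mice (correlations of -0.31 to 0.25 for the same number and -0.27 to 0.43 for others), and with mouse number as a replicate block Wfdc17 against 5 days was -3.31 (adjusted p = 0.0547) and the WAP list had 0 calls in POL5551 against sham. With the replicate block 181 genes were called in POL5551 against sham, against 758 without it.

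The WAP list had 0 calls in POL5551 against sham with quantile normalization, normexp with quantile normalization, median scaling, the authors' values, the fixed slide block and the off-tissue covariate, 2 with the filter on all 12 arrays, and 0 to 3 with 1 array left out. In POL5551 against 2 days it had 2, 3, 2 and 3 calls under the first 4 of these, 0 with the covariate and 0 to 12 with 1 array left out. The proteases and inhibitors, a count whose alternatives were added after seeing the data, had 2, 3, 4 and 2 calls there, against 8, with 0 under the covariate and 0 to 10 with 1 array left out. Wfdc2 against 2 days was 1.77 with median scaling and 1.33 with the filter on all 12 arrays (both passed), -0.21 with the covariate, and 1.09 to 1.47 with 1 array left out.

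Several differences of Slpi and Wfdc2 turned sign. Under quantile, normexp with quantile, median scaling and the authors' values, Slpi gave 0.11, 0.17, 0.024 and 0.12 for 5 against 2 days, 0.23, 0.11, 0.16 and 0.25 for POL5551 against 5 days, and 0.34, 0.28, 0.18 and 0.37 for POL5551 against 2 days, and Wfdc2 gave 0.032, 0.16, 0.15 and 0.040 for 5 against 2 days. With the covariate Slpi gave 0.62 for POL5551 and 0.032 for 5 days against sham, 0.67 for 5 against 2 days, and 0.59 and 1.26 for POL5551 against 5 and 2 days, and Wfdc2 gave -0.30 for POL5551 against sham and -0.21 against 2 days. With the fixed slide block Wfdc2 gave 0.27 for 5 days against sham. The downstream probe gave 0.48 for Slpi at 2 days against sham and 0.0044 for POL5551 against 5 days. With 1 array left out, Slpi ranged from -0.85 to 0.13 for 2 days against sham and from -0.34 to 0.10 for POL5551 against 5 days, and Wfdc2 from -0.94 to 0.10 and -0.99 to 0.046 for 2 and 5 days against sham and from -0.11 to 0.019 for 5 against 2 days. The cause of these changes was not tested. Median scaling moved the median of all genes in POL5551 against sham to -0.12, against -0.52 with the 75th percentile.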
